A study of Mus musculus with 6 samples.

Results

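The expression of 9 transcription factor genes that define myeloid and dendritic cells, Spi1, Cebpa, Cebpb, Irf8, Irf4, Klf4, Batf3, Zbtb46 and Tcf4, was compared between circulating activated T cells with and without CD11c. Every probe set whose single gene symbol was 1 of these names was taken, which gave 19 of the 45141 probe sets on the array and 9 of the 17097 genes that can be named. T cells were sorted from the blood of 3 female C57BL/6 mice of 6 to 8 weeks, A, C and D, into a CD3+ CD62L- CD44high CD11c+ and a CD3+ CD62L- CD44high CD11c- fraction, with 300 cells collected per sample, so that 6 arrays form 3 pairs. Both fractions came from mice given 3 mg of Depo-Provera, a long-acting progestin, 5 days before blood was taken, as stated in the labels. The paper's methods instead give 6 days before the mice were killed and bled. No sample came from an infected or untreated mouse. Values are log2 RMA signals, that is, background-corrected, quantile-normalized and summarized intensities, and a mean at or under 5.73, the 95th percentile over 36 genes that belong to other tissues, is called not above background.

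Lineage-determining transcription factors open and maintain the regulatory regions of a cell type. PU.1, the protein of Spi1, acts with C/EBP factors in monocytes, macrophages and granulocytes and with IRF4 or IRF8 on composite sites in dendritic and B cells. IRF8 and BATF3 are needed for the type 1 conventional dendritic cell (cDC1), IRF4 and KLF4 for parts of the type 2 lineage (cDC2), ZBTB46 marks conventional dendritic cells and their committed precursors, and TCF4, the E protein also called E2-2, specifies the plasmacytoid dendritic cell (pDC). Most mature T cells, though not all, keep Spi1 and Cebpa low, while activated T cells can induce Irf4, Irf8 and Batf3.

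Of the 9 genes, 5 were higher in CD11c+ than in CD11c- T cells, namely Spi1, Cebpa, Cebpb, Irf8 and Tcf4, and none was lower. Each gene was represented by its brightest probe set over the arrays and tested in limma with the mouse as a block, at an adjusted p under 0.05 over all probe sets. Over all genes, 1.4% were higher and 0.222% lower by the same rule. Counted by probe set, 6 of 19 rose and 13 did not pass the test, against 0.957% of all probe sets that were higher and 0.168% that were lower. The 3 CD11c+ arrays lay above the 3 CD11c- arrays in 13 of the 19 probe sets, as they did in 6.4% of all probe sets, and 16 of the 19 were higher in 3 of 3 mice, against 11.3% of all. The median log2 difference was 1.90 over the 9 genes and 1.10 over the 19 probe sets, where it was -0.086 over all genes. In sorted samples of this kind, fewer cells of a type and less RNA per cell cannot be told apart. Of the 19 probe sets, 12 had a CD11c+ mean above background and 3 a CD11c- mean above background, while 7 were above it in neither fraction.

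**Figure D1:**
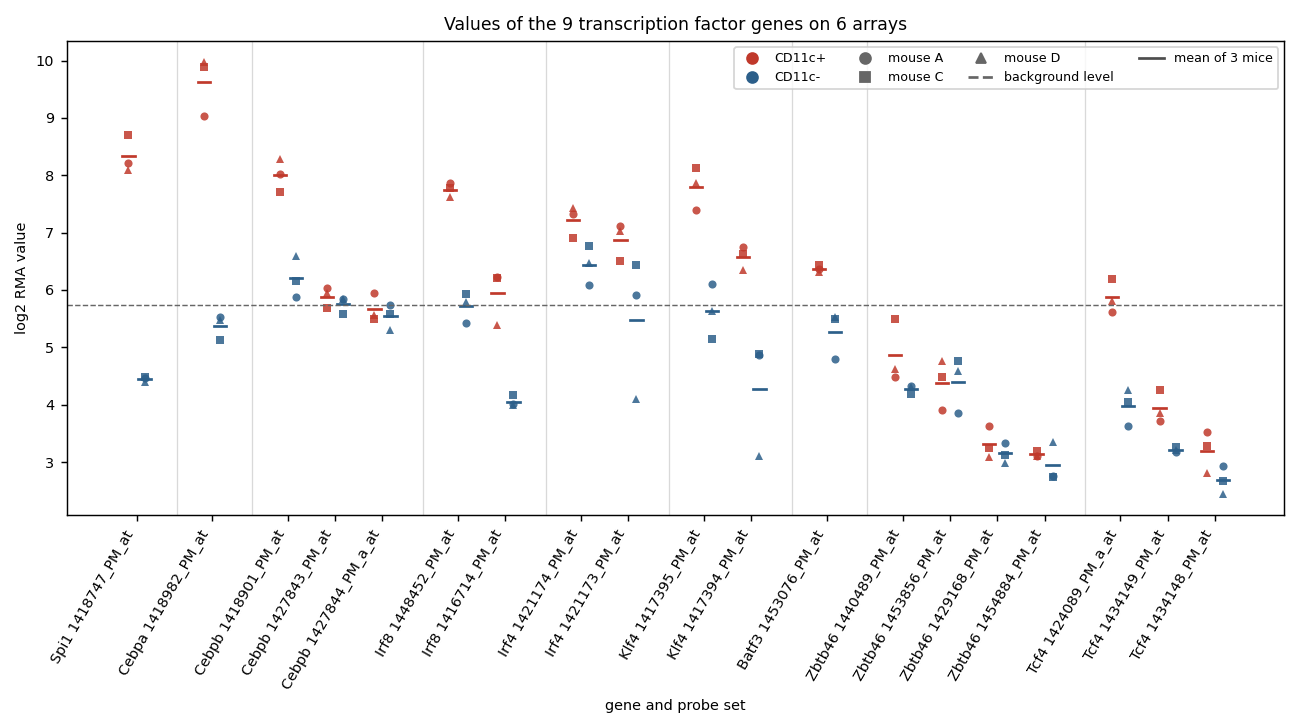
Log2 RMA values (vertical axis) of the 19 probe sets of the 9 genes (horizontal axis) in all 6 arrays, CD11c+ in red and CD11c- in blue, marker shapes showing the mouse, bars showing group means and dashes showing the background, 5.73. All CD11c+ arrays exceed that level for Spi1 and Cebpa and no CD11c- array does, and no probe set of Zbtb46 exceeds it in either fraction.

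To show regulatory sequence, the 250 bases before the annotated start are given from RefSeq (GRCm38.p6) for 3 of the genes that rose. Batf3, which did not pass the test, is given beside them. In all, 8 windows were used for 7 of the 9 genes. Spi1 had no window and Tcf4 was left out, though both rose. The capitals mark the letters of every motif found.
Cebpa, chr7:35119043-35119292, plus strand: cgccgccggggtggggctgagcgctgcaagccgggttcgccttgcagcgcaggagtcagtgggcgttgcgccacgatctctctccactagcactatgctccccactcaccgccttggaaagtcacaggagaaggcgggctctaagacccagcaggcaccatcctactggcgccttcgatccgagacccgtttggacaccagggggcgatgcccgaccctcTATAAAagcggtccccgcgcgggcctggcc
Cebpb, chr2:167688665-167688914, plus strand: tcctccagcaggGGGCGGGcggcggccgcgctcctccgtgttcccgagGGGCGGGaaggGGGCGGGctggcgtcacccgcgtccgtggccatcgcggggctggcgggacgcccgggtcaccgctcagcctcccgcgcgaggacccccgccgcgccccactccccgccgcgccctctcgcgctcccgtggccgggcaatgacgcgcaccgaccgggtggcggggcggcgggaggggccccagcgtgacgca
Irf8, chr8:120736108-120736357, plus strand: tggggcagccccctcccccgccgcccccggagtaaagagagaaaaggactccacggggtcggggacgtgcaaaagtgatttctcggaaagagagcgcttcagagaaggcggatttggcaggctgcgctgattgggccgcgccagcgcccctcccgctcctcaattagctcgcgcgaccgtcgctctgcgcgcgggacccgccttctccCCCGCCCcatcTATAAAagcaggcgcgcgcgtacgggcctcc
Batf3, chr1:191098164-191098413, plus strand: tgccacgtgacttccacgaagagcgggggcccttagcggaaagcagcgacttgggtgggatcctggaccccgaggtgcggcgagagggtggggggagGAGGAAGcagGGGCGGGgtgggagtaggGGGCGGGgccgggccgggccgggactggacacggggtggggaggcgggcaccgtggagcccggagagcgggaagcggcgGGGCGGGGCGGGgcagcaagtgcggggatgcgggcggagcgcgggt
The motifs were searched on both strands, as GAGGAAG for PU.1, GGAA and GAAA parted by any 2 bases for PU.1 with an IRF, GAAA repeated after any 2 bases for IRF, TTNNGNAA for C/EBP, TGANTCA for AP-1 or BATF, CAGCTG for E proteins, GGGCGGG for KLF or SP factors and TATAAA for the TATA box. The 2 motifs with GAAA can share letters. Only the window of Batf3 held the PU.1 motif, 153 bases before the start, and 10.6% of 32851 windows held it. The windows of Cebpa, Cebpb and Irf8, which rose, did not hold it. The TATA box stood 30 bases before the start of Cebpa, 31 before that of Irf8 and 26 before that of Irf4, which did not pass the test, so 3 of the 7 genes held it, against 12.4% of windows. The KLF or SP motif was present in 5 of the 7 genes (Cebpb, Irf8, Irf4, Klf4 and Batf3), against 23.4% of all windows. These windows are rich in G and C, at 66.4% for Cebpa, 81.6% for Cebpb, 67.2% for Irf8 and 76.0% for Batf3, where the median of all windows was 52.4%. The motifs of IRF, of PU.1 with an IRF and of C/EBP had no match in any of the 8 windows, where 2.98%, 2.3% and 36.8% of all windows held them. Each match is a match of letters only.

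Spi1 encodes PU.1, the ETS factor on which the myeloid and B lineages depend. Its only probe set had log2 values of 8.21, 8.70 and 8.10 in the CD11c+ cells of mice A, C and D, against 4.46, 4.49 and 4.40 in their CD11c- cells. The 2 fractions were 3.61 apart at their nearest arrays, and the CD11c- arrays were close together. Spi1 averaged 8.34 ± 0.320 in the CD11c+ fraction and 4.45 ± 0.0451 in the CD11c- fraction (SD, n = 3 mice), and limma gave a log2 difference of 3.89 (standard error, SE, 0.165, adjusted p = 0.00626). Its mean in CD11c- cells did not exceed background, so against the background level Spi1 was at least 6.08-fold higher.

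Cebpa encodes C/EBP alpha, which drives the granulocyte and monocyte precursor and is also used by basophils. Its only probe set gave 9.04, 9.88 and 9.97 in CD11c+ cells, against 5.52, 5.12 and 5.47 in CD11c- cells of mice A, C and D. Cebpa had a log2 difference of 4.26 (SE 0.282, adjusted p = 0.0154). It averaged 9.63 ± 0.514 in the CD11c+ fraction and 5.37 ± 0.215 in the CD11c- fraction (SD, n = 3 mice), the second mean not above background, and was at least 14.9-fold higher against that level. The difference was smallest in mouse A, at 3.52 against 4.75 in mouse C and 4.51 in mouse D.

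Cebpb, whose product C/EBP beta acts in stress granulopoiesis, macrophage activation and the survival of patrolling monocytes, has 3 probe sets that did not behave alike. The brightest gave 8.03, 7.71 and 8.29 in CD11c+ cells and 5.88, 6.15 and 6.59 in CD11c- cells. It was above background in both fractions and had a log2 difference of 1.80 (SE 0.172, adjusted p = 0.0343), or 3.49-fold. The other two had log2 differences of 0.13 with 95% intervals of -0.20 to 0.46 (adjusted p = 0.722) and -0.25 to 0.51 (adjusted p = 0.761), with overlapping fractions. Their values, between 5.30 and 6.03 on all 6 arrays, lay at the background level. With the mean of the 3 probe sets per array Cebpb had a log2 difference of 0.69 and did not pass (adjusted p = 0.0750).

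Irf8 encodes a partner of PU.1 that is needed for monocytes, cDC1 and B cell programmes, and both of its probe sets rose. The brighter gave 7.87, 7.77 and 7.62 in CD11c+ cells, against 5.42, 5.93 and 5.79 in CD11c- cells. Its log2 difference was 2.04 (SE 0.186, adjusted p = 0.0313), with a CD11c- mean of 5.72, just under the background level. The dimmer gave 6.23, 6.20 and 5.39 in CD11c+ cells and 4.01, 4.16 and 3.99 in CD11c- cells, a log2 difference of 1.89 (adjusted p = 0.0486). Against the background level the first was at least 4.05-fold higher and the second at least 1.15-fold.

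Irf4, which T cells induce through their receptor and which cDC2 and plasma cells need, did not pass the test with either probe set. By the brighter it had values of 7.32, 6.90 and 7.43 in CD11c+ cells, against 6.08, 6.77 and 6.47 in CD11c- cells, all above background. The fractions did not overlap but were only 0.13 apart, and mouse C showed a difference of 0.13 where mouse A showed 1.24 and mouse D 0.96. The log2 difference was 0.78 with a 95% interval of 0.10 to 1.46 (adjusted p = 0.311). The other probe set had 1.40 (adjusted p = 0.412), with differences of 1.20, 0.08 and 2.93 in mice A, C and D. The large difference in mouse D came from a CD11c- value of 4.10 in mouse D, against 5.92 and 6.43 in mice A and C.

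Klf4, a zinc finger factor of monocyte differentiation that is also known from quiescent CD8 T cells, did not pass the test with either of its 2 probe sets. The brighter gave 7.40, 8.12 and 7.86 in CD11c+ cells, against 6.10, 5.14 and 5.64 in CD11c- cells. The fractions were 1.30 apart, with differences of 1.30, 2.99 and 2.22 in mice A, C and D, and the log2 difference of 2.17 had an SE of 0.351 (95% interval 1.23 to 3.11, adjusted p = 0.0966). The dimmer gave 6.75, 6.62 and 6.34 in CD11c+ cells and 4.86, 4.89 and 3.10 in CD11c- cells, a log2 difference of 2.29 (95% interval 1.37 to 3.21, adjusted p = 0.0857). Both CD11c- means were not above background, and against that level the bounds were 4.17-fold for the brighter and 1.79-fold for the dimmer. Klf4 passed with the mean of its probe sets (adjusted p = 0.0194), and the brighter passed without the mouse block (adjusted p = 0.0226) and the dimmer with a trended variance (adjusted p = 0.0424). It did not pass without mouse A, C or D (adjusted p from 0.0502 to 0.276 over both probe sets).

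Batf3 and Zbtb46, the factors most closely tied to conventional dendritic cells, did not pass the test. Batf3 had values of 6.36, 6.43 and 6.32 in CD11c+ cells and 4.79, 5.50 and 5.52 in CD11c- cells by its only probe set. All CD11c+ arrays lay above the CD11c- arrays and above background, and the log2 difference was 1.10 with a 95% interval of 0.56 to 1.64 (adjusted p = 0.120). Zbtb46 was not above background in either fraction with any of 4 probe sets. The brightest gave 4.48, 5.49 and 4.63 in CD11c+ cells and 4.32, 4.18 and 4.30 in CD11c- cells, a log2 difference of 0.60 (95% interval -0.13 to 1.32, adjusted p = 0.465). Its CD11c+ mean was carried by mouse C, where the difference was 1.31 against 0.15 in mouse A and 0.33 in mouse D. The other 3 probe sets of Zbtb46 had log2 differences of -0.01, 0.17 and 0.19, with adjusted p from 0.655 to 0.979.

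Tcf4, named here for E2-2 and not for the Wnt pathway factor Tcf7l2 that shares the alias, rose on the brightest of its 3 probe sets. It gave 5.61, 6.19 and 5.81 in CD11c+ cells, against 3.62, 4.05 and 4.25 in CD11c- cells, a log2 difference of 1.90 (SE 0.171, adjusted p = 0.0300). Its CD11c+ mean of 5.87 was only a little above background, so that the bound against that level was 1.10-fold. The other probe sets were not above background in either fraction, with log2 differences of 0.73 (adjusted p = 0.154) and 0.52 (adjusted p = 0.215), each higher in 3 of 3 mice.

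**Figure D2:**
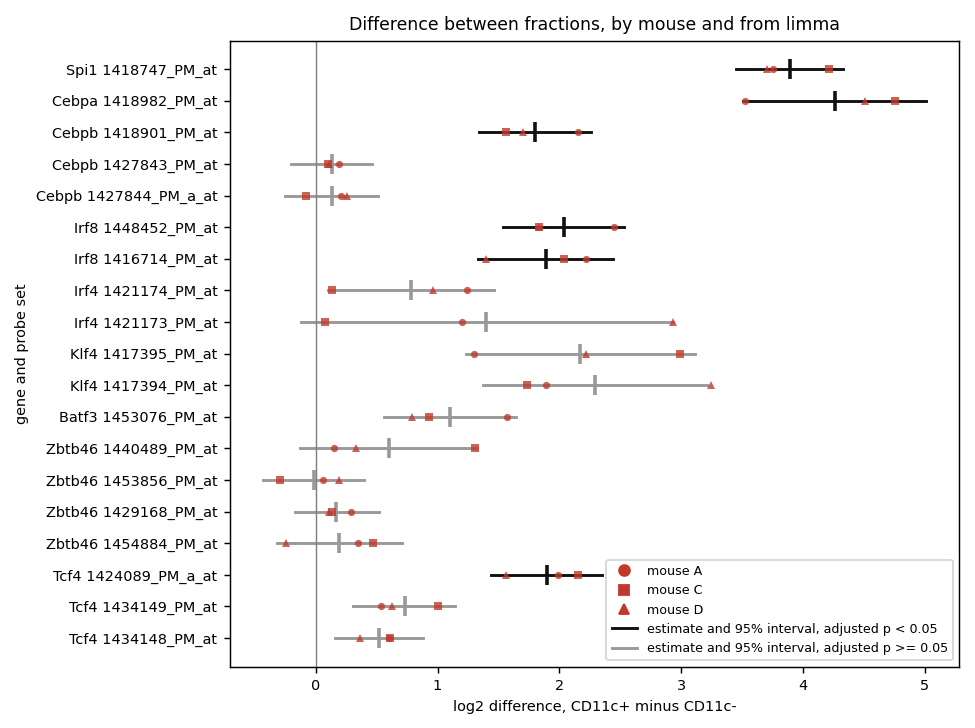
Log2 difference between CD11c+ and CD11c- cells (horizontal axis) for the 19 probe sets (vertical axis), with red symbols for the difference in each mouse, a tick for the limma estimate and a line for its 95% interval, black where the adjusted p was under 0.05. Spi1 at 3.89 and Cebpa at 4.26 stand apart from the other 4 probe sets that passed, which lie between 1.80 and 2.04.

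The calls fell when any mouse was left out, and how far depended on which mouse it was. Without the arrays of mouse A limma called none of the 19 probe sets (10 had an unadjusted p under 0.05, and the 6 had adjusted p from 0.0848 to 0.217), but then none of the 45141 did. Without mouse C only Spi1 (adjusted p = 0.0256) and Cebpa (adjusted p = 0.0448) passed, and without mouse D Spi1 (adjusted p = 0.0114), Cebpa (adjusted p = 0.0277), Tcf4 (adjusted p = 0.0372) and Irf8 by its dimmer probe set (adjusted p = 0.0351) did. Spi1 and Cebpa also passed after cyclic loess (adjusted p = 0.0130 and 0.0307) and with median-centred arrays (adjusted p = 0.0101 and 0.0220). After cyclic loess Tcf4 (log2 difference 1.97, adjusted p = 0.0524) and the dimmer probe set of Irf8 (1.96, adjusted p = 0.0804) did not pass, and the second did not pass with a robust variance either (1.89, adjusted p = 0.0587). With median centring Cebpb (1.83, adjusted p = 0.0580) and both probe sets of Irf8 (2.06 and 1.91, adjusted p = 0.0563 and 0.0771) did not pass. After cyclic loess, with median centring and with the robust variance, the log2 differences of these probe sets were no smaller than as reported. Leaving out a mouse moved them in both directions. Spi1 had 3.96 without mouse A and 3.73 without mouse C, against 3.89 as reported.

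Other regulators of the same lineages were measured for 38 of 41 listed genes, of which 4 were higher, 0 lower and 34 did not pass. By the same rule 1.4% of all genes were higher and 0.222% lower. Zeb2, a repressor that monocytes, pDC and effector T cells use, had the highest log2 difference of the 4, 3.37 (adjusted p = 0.0487). Bcl11a, a factor of B cells and pDC, had 3.18 (adjusted p = 0.0154), Irf5, an activator of inflammatory cytokine genes, 2.45 (adjusted p = 0.0316), and Fos, an AP-1 subunit, 1.78 (adjusted p = 0.0403). Egr1, an immediate early gene, averaged 11.14 in CD11c+ and 6.20 in CD11c- cells but did not pass (log2 difference 4.94, adjusted p = 0.0534). Zeb1 (log2 difference -1.45, adjusted p = 0.0735) and Klf2 (-0.69, adjusted p = 0.165) were the lowest of those above background. The list had a median log2 difference of 0.49. This list and those that follow were drawn up with earlier results of these data known.

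Genes that need PU.1 or C/EBP factors in myeloid cells were measured for 25 of 30 listed. Of these, 12 were higher, 0 lower and 13 did not pass, against 1.4% higher and 0.222% lower over all genes. Their median log2 difference was 2.36, where all genes had -0.086. Lyz2, the lysozyme of myeloid cells, had 6.95 (adjusted p = 0.0154) and Csf2rb2, a cytokine receptor subunit, 6.66 (adjusted p = 0.00554). Csf1r, the macrophage growth factor receptor and a classical target of PU.1, averaged 8.14 in CD11c+ and 5.39 in CD11c- cells. By its brightest probe set the log2 difference was 2.75 (adjusted p = 0.00829), and the paper lists a larger difference for this gene. Not all members were raised. Mpo, Elane and Prtn3, the granule genes of granulocyte precursors, were not above background in either fraction, with log2 differences of -0.17, -0.07 and -0.14, and Cd14 was not above background either (0.82, adjusted p = 0.117). Il6ra (log2 difference -0.57) and Itgb2 (0.32) were the lowest of the members above background.

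In the lists of dendritic cell genes linked to these factors most members did not pass. Over all genes, 1.4% were higher and 0.222% lower by the same rule. Of 14 measured cDC2 genes, 3 were higher and 0 lower (median log2 difference 0.96), namely Cd209a, a C-type lectin, with 5.34 (adjusted p = 0.0187), Clec10a, another lectin, with 5.00 (adjusted p = 0.00498), and Sirpa, an inhibitory receptor of phagocytes, with 4.17 (adjusted p = 0.0118). At the low end Dtx1, a ubiquitin ligase of the Notch pathway, had -0.67 (adjusted p = 0.190) and Ccl17, a chemokine gene, 0.16 (adjusted p = 0.729). Of 12 measured cDC1 genes, 1 was higher and 0 lower (median 0.07). That gene was Wdfy4, needed for cross-presentation, with 1.84 (adjusted p = 0.0217), while the chemokine receptor gene Xcr1, which defines cDC1, averaged 4.10 in CD11c+ and 4.35 in CD11c- cells and was not above background. Cst3, a protease inhibitor gene, had 1.76 (adjusted p = 0.0874), Ifi205, an interferon-induced gene, -0.72 (adjusted p = 0.145) and Itgae, which T cells also express, -1.09 (adjusted p = 0.0549). Of 12 measured genes shared by conventional dendritic cells, 1 was higher and 0 lower (median 0.29). This was Slamf8, a receptor of myeloid cells (3.60, adjusted p = 0.00864). Flt3, the growth factor receptor of dendritic cell precursors, averaged 5.93 in CD11c+ and 4.58 in CD11c- cells (1.35, adjusted p = 0.173), Nav1 had 1.56 (adjusted p = 0.244), Dpp4, the gene of CD26, 0.32 (adjusted p = 0.504) and Fscn1, an actin-bundling gene of mature dendritic cells, -0.18 (adjusted p = 0.633).

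Of 20 measured pDC genes, 4 were higher and 0 lower, against 1.4% and 0.222% of all genes, with a median log2 difference of 0.71. The 4 were Cybb, an oxidase subunit of phagocytes (a mean of 9.58 in CD11c+ and 5.58 in CD11c- cells, adjusted p = 0.00805), Bcl11a, Atp1b1, a sodium pump subunit (3.06, adjusted p = 0.0225), and Tlr9, a DNA sensor that B cells and basophils can also carry (2.95, adjusted p = 0.00654). By their brightest probe sets the other 16 did not pass. They ran between Tlr7, an RNA sensor, at 2.46 (adjusted p = 0.0584) and Pacsin1 at -0.84 (adjusted p = 0.181). The paper lists Tlr7 among its examples of up-regulated genes. Ly6d had 1.10 (adjusted p = 0.248) and was above background in CD11c+ cells only, and Spib, at 1.59 (adjusted p = 0.0644), and Cox6a2, at -0.17 (adjusted p = 0.743), were above it in neither fraction. Klk1 had -0.20 (adjusted p = 0.825) and Ccr9 -0.18 (adjusted p = 0.756). The range of the summed signal of the 8 pDC markers was 369 to 478 in CD11c+ and 304 to 401 in CD11c- cells, so that the fractions overlapped; Tcf4 is 1 of the 8. Of 20 measured monocyte genes, 5 were higher and 0 lower (median 1.09), among them Adgre4, a receptor of patrolling monocytes and macrophages (4.46, adjusted p = 0.00869), and Fcgr4, an Fc receptor of the same cells (4.21, adjusted p = 0.0105). Ms4a6c had -1.02 (adjusted p = 0.149) and Spn -0.29 (adjusted p = 0.476).

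**Figure D3:**
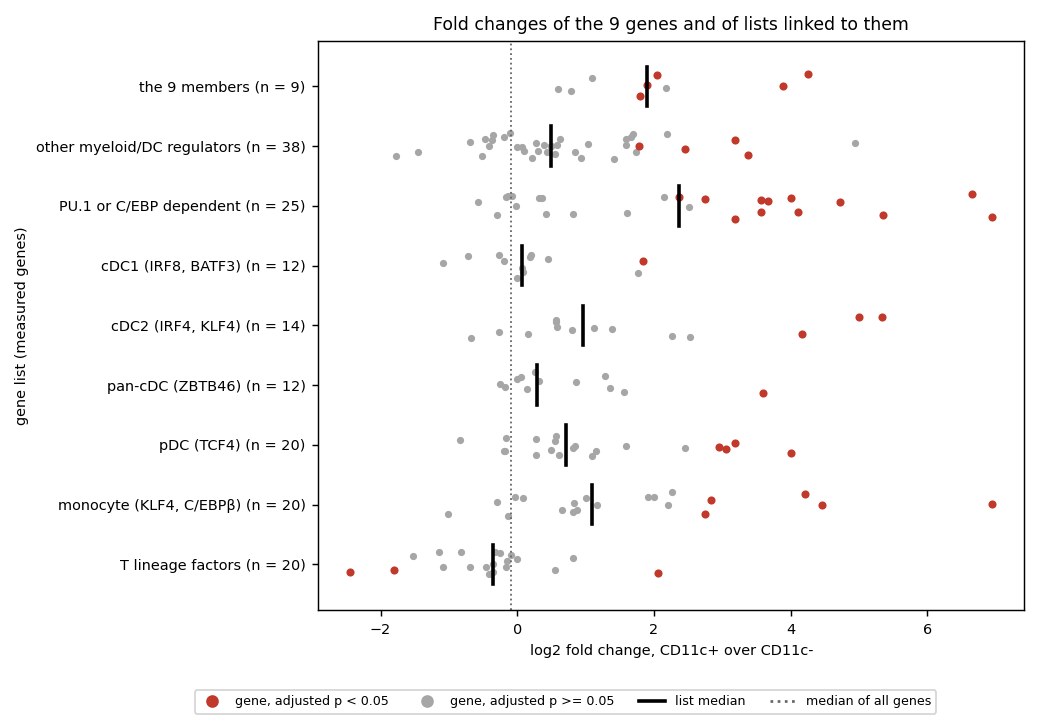
Log2 fold change between CD11c+ and CD11c- cells (horizontal axis) of the 9 genes and of the genes of 8 lists (vertical axis, with measured genes counted in brackets), each gene shown by its brightest probe set, red where the adjusted p was under 0.05, with black bars for list medians and a dotted line at the median of all genes, -0.086. The genes that need PU.1 or C/EBP factors have a median of 2.36 and the T lineage factors one of -0.35.

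Transcription factors of the T lineage were measured for 20 of 23 listed genes, with a median log2 difference of -0.35. Of the 20, 1 was higher, 2 lower and 17 did not pass, against 1.4% higher and 0.222% lower over all genes. Foxp3, the factor of regulatory T cells, had -2.44 (adjusted p = 0.0320) and Gata3, the factor of Th2 cells, -1.80 (adjusted p = 0.0486), while Eomes, a factor of memory CD8 and NK cells, had 2.06 (adjusted p = 0.0225). Tbx21, the factor of Th1 cells, had 0.81 (adjusted p = 0.504). Bcl11b, which represses myeloid and NK genes in T cells, averaged 8.65 in CD11c+ and 9.73 in CD11c- cells (-1.08, adjusted p = 0.0867) and so was measured far above background beside Spi1 and Cebpa. The list median turned to 0.38 when arrays were centred on the CD3 chains, which moved the median of all probe sets by 0.739.

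The sorted T cell identity was checked against its markers. All 4 CD3 chains were far above background in both fractions, and each was lower in CD11c+ cells in 3 of 3 mice without passing the test. Cd3e had a log2 difference of -0.49 (adjusted p = 0.205), Cd3d of -0.58 (adjusted p = 0.214), Cd3g of -0.69 (adjusted p = 0.174) and Cd247 of -1.19 (adjusted p = 0.0611). Cd44 had -0.01 (adjusted p = 0.989), and Itgax, which encodes CD11c, had 4.37 (adjusted p = 0.0387). Of 11 T cell markers 0 were higher and 2 lower, Cd6 at -1.85 (adjusted p = 0.0209) and Cd5 at -1.62 (adjusted p = 0.0416), both of which encode surface receptors that dampen T cell receptor signals. Their summed signal ranged from 5568 to 7010 in CD11c+ and from 11070 to 11810 in CD11c- cells, on the linear scale. Markers of other cell types differed from list to list, where 1.4% of all genes were higher and 0.222% lower by the same rule. The 16 markers of monocytes and macrophages summed to 7014 to 8622 in CD11c+ and 2240 to 2527 in CD11c- cells (8 higher, 0 lower, with Cd14 not above background), and the 14 of conventional dendritic cells to 12880 to 15690 and 385 to 538 (7 higher, 0 lower, with Xcr1 and Zbtb46 not above background; Itgax, Batf3 and Zbtb46 are in this list). The conventional dendritic cell list also holds H2-Aa, H2-Ab1, H2-Eb1 and Cd74, genes of MHC class II and its invariant chain. H2-Ab1 averaged 11.92 in CD11c+ and 5.06 in CD11c- cells, and H2-Eb1 11.51 and 5.58. On the linear scale such bright genes weigh heavily in the sum. The 12 markers of basophils and mast cells summed to 3340 to 5558 in CD11c+ and 176 to 194 in CD11c- cells (8 higher, 0 lower), with Gata2, a factor of the basophil and mast cell lineage, at a log2 difference of 5.37 (adjusted p = 0.00829) and Kit not above background. Of 13 B cell markers 2 were higher, with sums of 811 to 1729 in CD11c+ and 700 to 1514 in CD11c- cells. Of 9 NK cell markers 3 were higher and 1 lower, with sums of 3825 to 4153 and 2208 to 2376. The 10 neutrophil markers summed to 404 to 447 in CD11c+ and 154 to 201 in CD11c- cells. Of these, 8 were above background in neither fraction, S100a8 and S100a9 among them. Csf3r was higher, with a log2 difference of 2.36 (adjusted p = 0.0300), and Cxcr2 had 3.56 without passing (adjusted p = 0.0595). The 9 platelet and erythrocyte markers summed to 855 to 1755 in CD11c+ and 317 to 3856 in CD11c- cells, with 1 higher. The part of these other cell types in the values of the 9 genes was not tested. The gate was on CD3, CD62L, CD44 and CD11c.

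**Figure D4:**
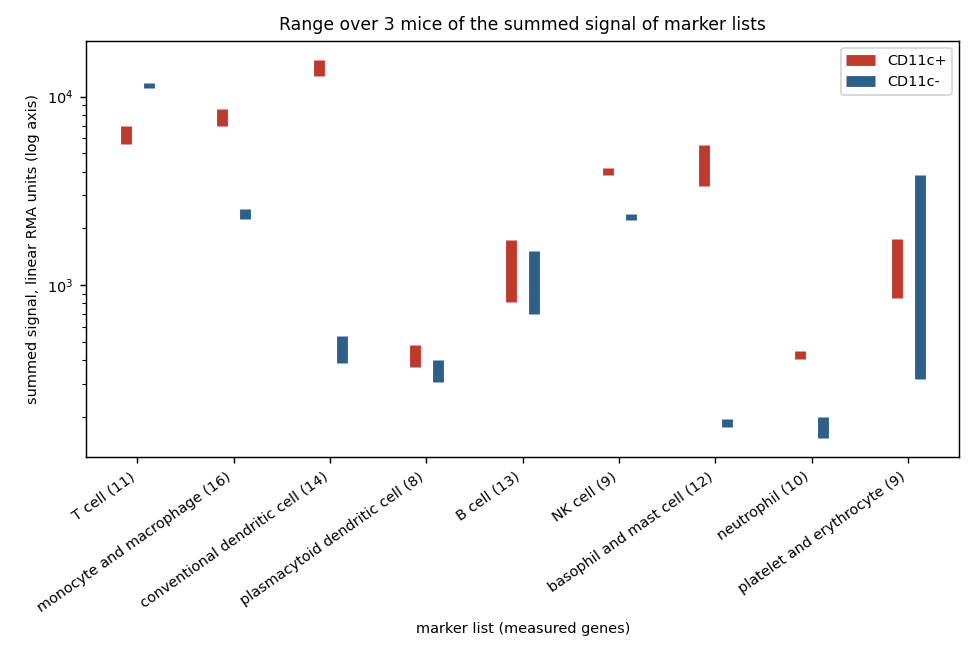
Range over 3 mice of the summed linear RMA signal (vertical axis, log scale) of 9 lists of cell type markers (horizontal axis, with measured genes counted in brackets) in CD11c+ (red) and CD11c- cells (blue). The basophil and mast cell markers run from 3340 to 5558 in CD11c+ cells, against 176 to 194 in CD11c- cells, and the T cell markers are lower in CD11c+ cells.

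The genes whose pattern over the 6 arrays was nearest to each member that rose were found by the root mean square difference of log2 values after each probe set was set to a mean of 0, among 6972 genes above background in a fraction. Only the mean was removed, so the size of the difference between the fractions enters this distance. Genes with a similar log2 difference therefore lie near each other, and shared regulation or a shared cell type was not tested. Nearest to Spi1 were Mcpt8, a basophil protease, at 0.164, Plbd1 at 0.188 and Ptpro at 0.192. Plbd1 had a log2 difference of 3.92 and Ptpro one of 4.12, against 3.89 for Spi1. Nearest to Cebpa were Clec7a, the receptor dectin-1, at 0.174, Cybb at 0.214 and Lrp1 at 0.218. Cebpb had Lrrk1 at 0.113, Lpcat2 at 0.150 and Stx7 at 0.156, and Tcf4 had Ms4a4c at 0.108, Gzmm at 0.189 and Zfp516 at 0.203. The probe sets of Irf8 shared Trps1, at 0.162 and 0.220, beside Gzmm at 0.127 and Myo1d at 0.153 for the brighter and App at 0.100 and Wdfy4 at 0.248 for the dimmer.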

How the data were processed

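Each sample was run on 1 single-colour Affymetrix mouse array after amplification of cDNA from 300 sorted cells. The authors deposited log2 signals for 45141 probe sets, which they had obtained by RMA. Software versions were not given in the sources used here. The distributions of arrays are made alike by RMA (medians 4.4 to 4.537), so that a change in total RNA per cell cannot be seen.

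From the log2 values, all probe sets were fitted in limma 3.58.1 (R 4.3.3), taking the mouse as a block. Tests were two-sided, and p-values were adjusted by Benjamini-Hochberg with a threshold of 0.05. The fit was tested on simulated data, with 50 probe sets changed at each size. Of log2 changes of 1 it recovered 0%, of 2 36%, of 4 74% and of 6 90%. Of its 103 calls, 3 were false. In the simulation, changes of 1 or 2 were thus often missed. Fewer probe sets were changed there than were called in the data, so its recovery need not hold for the data. Pairing follows the mouse letters of the labels. Deviations from the group means had correlations of 0.122, 0.0758 and 0.109 within a mouse, and between different mice they ranged between -0.086 and -0.0217. The platform annotation gives 28898 probe sets 1 gene, 551 more than 1 gene and 15692 no gene. The brightest probe set stood for a gene. Mice number 3, which leaves 2 residual degrees of freedom per probe set and limits the precision. The members and lists were chosen with earlier results of these data known. Named were the 9 genes with all probe sets, the sorting antigens, the ends of each list among genes above background (for cell type markers only in part), and the 3 nearest patterns of each member that passed. Other named genes were chosen after their values were seen, as those that passed in a short list or that define a cell type. Alternatives were the block, the scaling, a filter, the variance model, averaging all probe sets of a gene, lists without shared genes and leaving out each mouse.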

Additional observations from a re-analysis of the deposited data

How the results depend on the processing

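Of the 19 probe sets of the 9 genes, 6 passed as reported, 3 with arrays centred on their median, 19 with arrays centred on the CD3 chains, and between 0 and 4 when 1 mouse was left out. Centring on the CD3 chains moved the median of all probe sets by 0.739, and then 22412 of all probe sets were higher and 232 lower. As reported 432 probe sets were higher and 76 lower. The counts were 684 and 211 without the mouse block, 812 and 316 with the block as a random effect, and 684 and 207 with a trended variance. After cyclic loess 41 were lower, and among probe sets above the median mean 140 were. Leaving out 1 mouse gave 0 to 348 higher and 0 to 44 lower. Without the mouse block the 6 member probe sets passed as before, and the brighter probe set of Klf4 was added. Of 204 pairs of a member probe set and an alternative, 166 kept direction and side of the threshold, 18 lost the call, 16 gained it and 4 changed sign. The sign changed for 1 probe set of Zbtb46 that was not above background, which had -0.013 as reported, 0.066 after cyclic loess, 0.016 with median centring, 0.727 with CD3 centring and -0.113 to 0.125 when 1 mouse was left out. The median of the cDC1 list, 0.07 as reported, was -0.009 both with the filter and when all probe sets of a gene were averaged, and -0.02 to 0.107 when 1 mouse was left out. That of the T lineage factors, -0.35 as reported, was 0.385 with CD3 centring. The cause of these changes was not tested. Signal limits the dim genes, since 7 of the 19 probe sets were above background in neither fraction.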

Other observations

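Several of the 9 factors act as dimers, and some genes of further dimer partners and relatives were looked up after their values were seen. Of the E proteins and their inhibitors beside Tcf4, Tcf3 had a log2 difference of 0.00, Tcf12 -0.36 (adjusted p = 0.780), Id2 -0.47 (adjusted p = 0.251) and Id3 0.55 (adjusted p = 0.225). Of the AP-1 and BATF genes beside Batf3, Fos was higher (log2 difference 1.78, adjusted p = 0.0403), while the others given here did not pass. Jun averaged 10.98 in CD11c+ and 9.33 in CD11c- cells (log2 difference 1.66, adjusted p = 0.120), Junb had 0.50 (adjusted p = 0.330) and Batf -0.41 (adjusted p = 0.668). Cebpd and Cebpg, which pair with the other C/EBP factors, had 1.42 (adjusted p = 0.162) and 0.63 (adjusted p = 0.204).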
